A study of Homo sapiens with 15 samples.

Results

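The 10 genes described here mark pigment epithelium and the making of melanin: MITF, PMEL, TYR, TYRP1, DCT, MLANA, OCA2, SLC45A2, RPE65 and BEST1. They were matched by symbol among the 19684 genes measured, and all 10 were found. RNA-seq of poly(A) RNA was available for 15 libraries, 3 in each of 5 groups, all made from 1 human induced pluripotent stem cell (hiPSC) line, BC1-GFP, whose genotype is labelled WT. The groups were undifferentiated hiPSCs, neural retina (NR) layers cut from retinal organoids (ROs) at day 70 (D70-ROs) and at day 150 (D150-ROs), and induced Müller glial cells (iMGCs), which were grown out of D150-RO NR layers and taken on day 5 of passage 1 (P1 iMGCs) or passage 5 (P5 iMGCs). The NR layers of 5 ROs were pooled in each RO experiment. Every group therefore has the same genetic background, and no pigment epithelium sample or melanocyte sample was included as a positive control.

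Melanin is built in melanosomes, organelles of both human pigment cell lineages, the retinal pigment epithelium (RPE), which comes from the optic cup, and the melanocytes, which come from the neural crest. MITF is the transcription factor that switches on pigment genes in both. PMEL forms the fibrils on which melanin is laid down, TYR carries out the first steps of its synthesis, TYRP1 and DCT act on later intermediates, and OCA2 and SLC45A2 set the ion balance of the melanosome. RPE65 and BEST1 belong to the mature RPE and not to melanin synthesis. The question asked of these data was which of these transcripts were present in neural retina dissected from organoids and in the cultures grown from it.

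No group held more than 4 of the 10 transcripts at 1 FPKM (fragments per kilobase of transcript, scaled to the mapped fragments of the library, so a level per length) in all 3 libraries: D150-ROs held 4, D70-ROs 3 and each other group 1. In D70-ROs and D150-ROs DCT reached 10.85 to 16.37 FPKM, while TYR and TYRP1 did not exceed 0.60 FPKM in any of the 15 libraries. PMEL was the most abundant of the 10 genes, but in hiPSCs and D70-ROs and not in D150-ROs or iMGCs. MITF was highest in iMGCs, where DCT, PMEL, TYR and OCA2 were at or under 0.53 FPKM. RPE65 stayed at or under 0.12 FPKM everywhere. The plot of FPKM by library shows all 10 genes.

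**Figure D1:**
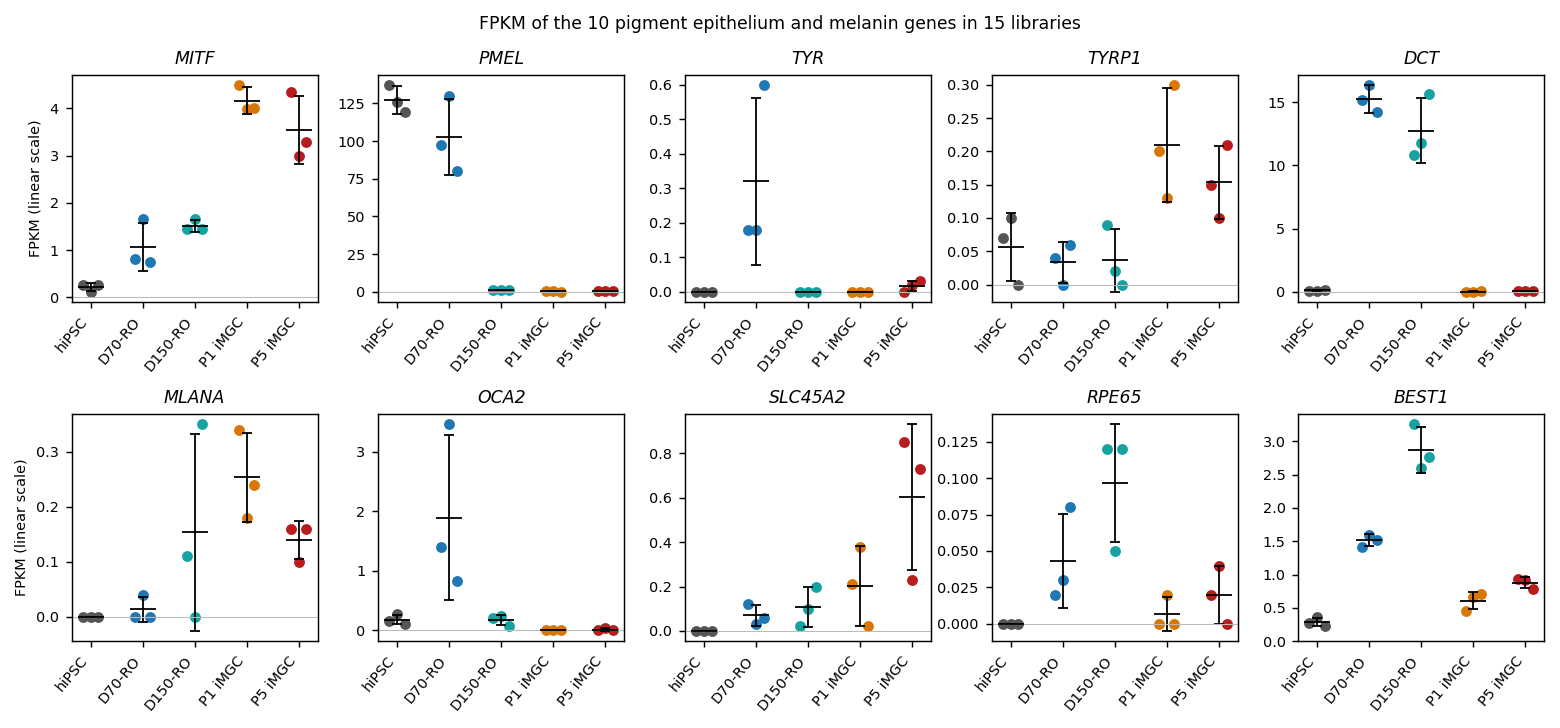
FPKM (linear axis, a separate scale for each gene) of the 10 genes in each library, with points for the 3 replicates of each group, horizontal bars for the mean and whiskers for the SD. DCT is high in both RO groups, PMEL in hiPSCs and D70-ROs, and MITF in both iMGC groups, while the axes for TYR, TYRP1, MLANA and RPE65 end below 1 FPKM.

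Total expected counts ran from 11349600 in D70-RO replicate 2 to 20398755, and 11212 to 12643 genes reached 1 FPKM. All 4 pluripotency markers reached 1 FPKM in each hiPSC library, against at most 2 in any other group, and all 8 neural retina markers did so in both RO groups. Of the 5 Müller glia markers, RLBP1 was listed at 0 in the 3 P1 libraries and at 0.09, 0 and 0 FPKM in the P5 libraries, SLC1A3 stayed at 0.36 to 1.23 FPKM in iMGCs, GLUL was at 12.25 to 15.22, SOX9 at 3.47 to 5.48 and VIM at 2141.45 to 2900.75 FPKM, so 3 of the 5 reached 1 FPKM in each P1 library and 4 of the 5 in each P5 library. The summed FPKM of 5 mesenchyme and fibroblast markers was 2137 to 2665 in iMGCs against 3.20 to 6.54 in ROs. Most of the iMGC sum was COL1A1, at 1946.06 to 2351.7 FPKM. COL1A2 and COL3A1 were also higher in every iMGC library than in any RO library. TWIST1 overlapped, at 1.74 to 3.66 FPKM in iMGCs and 0.48 to 1.92 in ROs. PRRX1 was at 0 to 0.03 FPKM in P1 and 1.48 to 2.11 in P5 iMGCs. Per the series' design text, RNA went to a pair of companies and batches of data were corrected for joint analysis, and no source says which libraries or values either concerns. Group and batch therefore cannot be told apart. The sources give either 2 or 3 independent experiments for hiPSCs and ROs, so p-values measure the spread between these libraries, which may in part be technical.

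Genes were compared between groups with edgeR's quasi-likelihood test, among genes that reached 1 FPKM in 3 or more of the 6 libraries compared, and called at a Benjamini-Hochberg adjusted p under 0.05 with a change of at least 2-fold. For D70-ROs against hiPSCs, 3 of the 10 passed the level filter and 2 were called, against 43.5% of all genes tested. Between D150-ROs and hiPSCs 4 were tested and 4 called, against 58.8%, and between D150-ROs and D70-ROs 4 were tested and 1 called, against 33.3%. For P1 iMGCs against D150-ROs 4 were tested and 4 called, against 44.1%, and for P5 against P1 iMGCs 1 was tested and 0 called by edgeR, against 2.92% (1 at an unadjusted p under 0.05, and 0 called by DESeq2 or limma). Against hiPSCs, 2 genes were tested and 2 called in P1 iMGCs, where 55.8% of all genes were called, and likewise in P5 iMGCs, where 56.2% were. These comparisons share libraries, and with so many genes of all kinds called, the counts show nothing particular to the 10 genes. Levels in FPKM and fitted changes are on unlike scales where iMGCs are compared with ROs: the median log2 change of all genes from D150-ROs to P1 iMGCs was −0.05 in the fit to counts and −0.67 on log2(FPKM + 0.1), where MITF changed by 1.40, PMEL by −2.07 and BEST1 by −2.08. In bulk RNA a smaller share of cells of 1 type and less RNA in each such cell cannot be told apart, which holds for every level below.

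Most of the 10 genes lay under that filter, so the fit was also made without it, where a few counts can decide a call. Then D70-ROs had 6 of the 10 called above hiPSCs (MITF, TYR, DCT, OCA2, SLC45A2 and BEST1, where 21.1% of all genes were called higher), and 3 were called lower at D150 than at D70 (PMEL, TYR and OCA2, where 15.3% were). Set against hiPSCs, D150-ROs had 6 called higher and 1 lower (27.5% and 26.9% of all genes), P1 iMGCs 5 and 3 (23.2% and 29.2%) and P5 iMGCs 5 and 2 (23.7% and 29.2%). From D150-ROs to P1 iMGCs 2 were higher, MITF and TYRP1, and 4 were lower, PMEL, DCT, OCA2 and BEST1 (18.1% and 24.3%). MITF had a log2 change of 2.59 ± 0.37 in D70-ROs against hiPSCs in that fit (edgeR adjusted p = 1.83e-05).

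**Figure D2:**
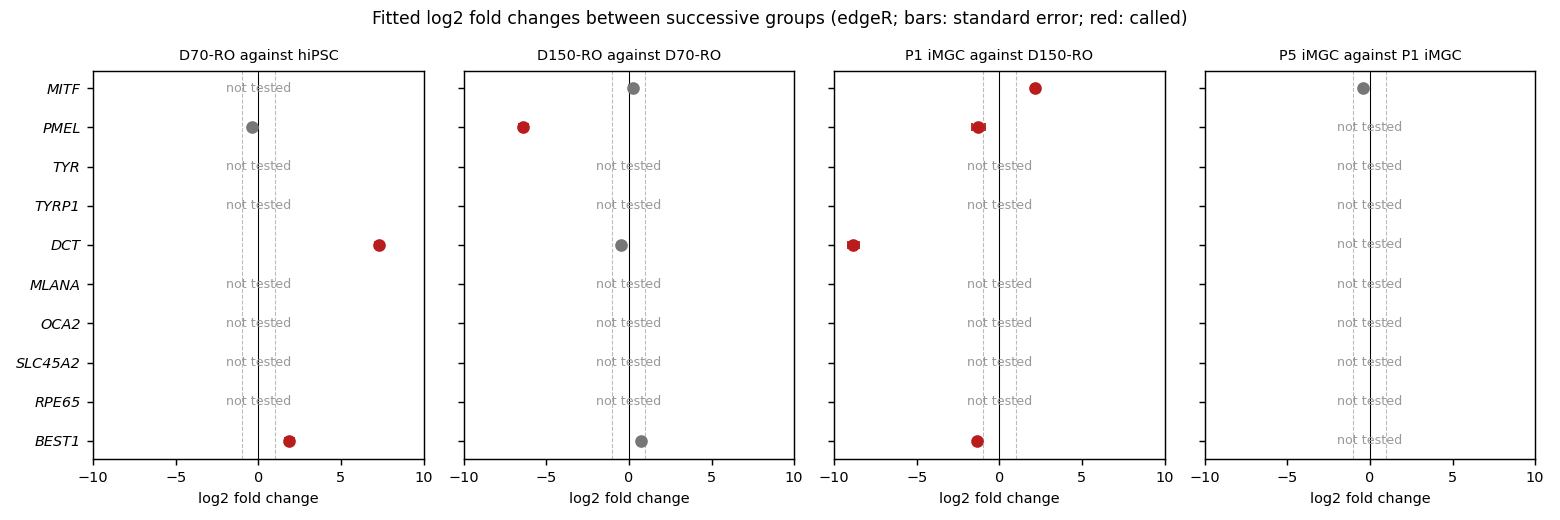
Fitted log2 fold changes (horizontal axis) of the 10 genes between successive groups, 1 panel for each comparison, with bars for the standard error and dashed lines at the 2-fold limit. Red points passed both limits, grey points were tested and did not, and genes under the level filter are marked as not tested. DCT rose by 7.31 in D70-ROs and fell by 8.85 in P1 iMGCs, and PMEL fell by 6.40 between the RO stages.

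The 3 enzymes of melanin synthesis were taken first, because a promoter of each holds a sequence that MITF is known to bind. RefSeq promoter windows (GRCh38.p14, 250 bases before to 50 after a start) were found for 7 of the 10 genes, with 10 windows in all, and none for PMEL, SLC45A2 and BEST1. The M-box core TCATGTG was searched on both strands. It was found in 3 windows, those of TYR, TYRP1 and the downstream start of DCT, and not in the other DCT window or in those of MITF, MLANA, OCA2 and RPE65. Of 35116 human promoter windows of the same length, 2.92% hold it. The E-box CACGTG was in 0 of the 10 windows and in 7.26% of all windows. The 250 bases before each of these 3 starts are shown 5′ to 3′ on the strand of the gene, with the core in capitals, which reads CACATGA where it lies on the other strand.
TYR, chr11:89177625-89177874, + strand: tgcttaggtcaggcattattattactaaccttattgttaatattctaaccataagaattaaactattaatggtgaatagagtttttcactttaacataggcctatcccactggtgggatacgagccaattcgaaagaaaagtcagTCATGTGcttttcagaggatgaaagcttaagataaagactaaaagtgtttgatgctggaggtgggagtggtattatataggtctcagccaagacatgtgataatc
TYRP1, chr9:12693135-12693384, + strand: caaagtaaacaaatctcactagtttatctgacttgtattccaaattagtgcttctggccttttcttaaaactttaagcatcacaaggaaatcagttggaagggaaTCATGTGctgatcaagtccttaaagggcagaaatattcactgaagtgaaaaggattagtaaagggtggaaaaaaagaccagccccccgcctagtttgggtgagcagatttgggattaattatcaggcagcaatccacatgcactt
DCT, chr13:94479683-94479932, - strand: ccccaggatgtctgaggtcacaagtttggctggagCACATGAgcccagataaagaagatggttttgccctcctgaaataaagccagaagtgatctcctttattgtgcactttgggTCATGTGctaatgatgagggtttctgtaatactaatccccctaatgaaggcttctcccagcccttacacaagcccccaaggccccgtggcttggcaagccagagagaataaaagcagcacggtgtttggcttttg
The core lies 105 bases before the start of TYR, 145 bases before that of TYRP1, and at 135 and 215 bases before that of DCT. A match is a description of the letters and not a measured site of binding. The 3 windows shown carry the core, and the other DCT window does not. Levels were measured by gene and do not say which start was used. The 3 genes had unlike levels.

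DCT (chr13:94436808-94479682 in GRCh38), dopachrome tautomerase, was the one enzyme of melanin synthesis with a sizeable level. The D70-RO libraries were at 15.20, 16.37 and 14.20 FPKM and the D150-RO libraries at 10.85, 11.76 and 15.64 FPKM. In hiPSCs it was at 0.07, 0.09 and 0.14 FPKM. All 6 RO libraries lay above all hiPSC libraries, and the RO stages overlapped. DCT rose by 7.31 ± 0.23 (log2, SE) in D70-ROs and by 6.82 ± 0.25 in D150-ROs against hiPSCs (edgeR adjusted p = 7.84e-10 and 1.27e-10). Between the RO stages the difference was −0.50 ± 0.16 (edgeR adjusted p = 0.0207), which is under the 2-fold limit.

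In iMGCs, DCT was at 0.01, 0.01 and 0.02 FPKM at P1 and at 0.02, 0.02 and 0.04 FPKM at P5, which came from 4 and 6 counts over 3 libraries, against 2991 counts in D150-ROs, the tissue that the cells were grown from. No iMGC library came near an RO library. Against D150-ROs, P1 iMGCs were lower by 8.85 ± 0.32 on the log2 scale (log2 change −8.85, edgeR adjusted p = 3.89e-13). The neural retina markers moved with DCT. The summed FPKM of the 8 was 664.7 to 700.8 in D150-ROs and 5.93 to 6.79 in P1 iMGCs. All 8 markers were called lower, where 44.1% of all genes were called in either direction. Their part in the fall of DCT was not tested.

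TYR (chr11:89177452-89295759), tyrosinase, which starts melanin synthesis, was listed at 0 in all libraries of hiPSCs, D150-ROs and P1 iMGCs. D70-ROs held it at 0.18, 0.18 and 0.60 FPKM, from 9, 5 and 27 counts, and P5 iMGCs at 0, 0.02 and 0.03 FPKM, from 2 counts in all. D70-ROs stood above every other library, with replicate 3 supplying 27 of the 41 counts. A count of 0 still allows 3 counts over a group, which is 3 of 48257579 counts in D150-ROs. On that limit, with the D70-RO count taken as exact, TYR was at least 16.5-fold higher in D70-ROs than in hiPSCs. It was at least 13.4-fold lower at D150 than at D70. It failed the level filter, and without it was called in both comparisons (edgeR adjusted p = 6.39e-04 and 0.00206). Bounds of this kind, here and below, leave out the counting error of the group that has counts, so at few counts they can be too high.

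TYRP1 (chr9:12685439-12710290), which stabilises tyrosinase and acts late in eumelanin synthesis, was near the detection limit in every group. The hiPSC libraries were at 0.07, 0.10 and 0 FPKM, the D70-RO libraries at 0.04, 0 and 0.06 FPKM and the D150-RO libraries at 0.09, 0.02 and 0 FPKM. They were 0.20, 0.13 and 0.30 FPKM in P1 iMGCs and 0.15, 0.10 and 0.21 in P5 iMGCs. The P1 libraries lay above the D150-RO libraries, from 15 against 3 counts, a ratio of 4.81 (95% counting interval 1.36 to 25.9, edgeR adjusted p without the level filter 0.0143). The exons of TYRP1 overlap the antisense gene LURAP1L-AS1, and counting by strand is not stated, so at so few counts their reads cannot be told apart.

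PMEL (chr12:55954105-55973317), the fibril protein of the melanosome, had an order of its own. The hiPSC libraries held it at 137.25, 125.64 and 119.08 FPKM, and the D70-RO libraries overlapped them at 97.64, 129.62 and 79.92 FPKM. D150-ROs were at 1.31, 1.29 and 1.27 FPKM, below every library of both. The difference of D70-ROs from hiPSCs was −0.39 ± 0.18 on the log2 scale and did not pass (edgeR adjusted p = 0.0716). PMEL then fell by 6.40 ± 0.26 between D70-ROs and D150-ROs (edgeR adjusted p = 2.21e-07), from 7080 to 100 counts. Against hiPSCs the D150-ROs were lower by 6.80 ± 0.12 (log2 change −6.80, edgeR adjusted p = 1.43e-12).

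PMEL was lower again in iMGCs, at 0.44, 0.25 and 0.09 FPKM at P1 and 0.53, 0.40 and 0.29 at P5, and neither group overlapped the D150-ROs. The P1 iMGCs differed from D150-ROs by −1.29 ± 0.40 on the log2 scale (edgeR adjusted p = 0.00715), from 27 and 100 counts. That call rests on P1 replicate 3, which had 3 counts, because without it the difference was −0.85 and lost the 2-fold limit (edgeR adjusted p = 0.041). Against hiPSCs the change was −8.09 ± 0.22 at P1 and −7.82 ± 0.17 at P5 (edgeR adjusted p = 3.19e-11 and 1.05e-12). PMEL exons overlap those of CDK2, a cell cycle kinase, whose change between the RO stages was −1.41. The counts of both genes were whole in all 15 libraries, with no fractional share between them.

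MLANA (chr9:5890802-5910606), a melanosome membrane protein used as a melanocyte marker, was listed at 0 in the 3 hiPSC libraries and at 0, 0.04 and 0 FPKM in D70-ROs. D150-ROs were at 0.11, 0 and 0.35 FPKM, with replicate 3 holding 14 of 18 counts. P1 iMGCs were at 0.34, 0.18 and 0.24 FPKM and P5 iMGCs at 0.16, 0.10 and 0.16 FPKM. All 6 iMGC libraries lay above all hiPSC libraries, at least 11.9-fold for P1 and at least 6.73-fold for P5 on the limit of 3 counts. These were calls only without the level filter (edgeR adjusted p = 1.36e-04 and 0.00108).

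OCA2 (chr15:27754875-28099358), a melanosome anion transporter, was highest in D70-ROs, at 1.40, 3.46 and 0.82 FPKM. The hiPSC libraries were at 0.16, 0.27 and 0.11 FPKM, the D150-RO libraries at 0.20, 0.24 and 0.08 FPKM, and it was listed at 0 in the 3 P1 libraries and 2 of the 3 P5 libraries. The D70-ROs lay above all other libraries. Among them replicate 2, the library with the fewest counts, had the highest FPKM for OCA2, MITF, PMEL, DCT, BEST1 and, from 1 count, MLANA. Replicate 3 was highest for TYR, TYRP1 and RPE65, and replicate 1 for SLC45A2. Replicate 2 was also highest for VIM and for each neural retina marker, and lowest for CPAMD8, MYO5A and LYST. Its high values were therefore not particular to the pigment genes. Fitted without the level filter, OCA2 rose by 3.84 ± 0.54 (log2, SE) from hiPSCs to D70-ROs and fell by 3.78 ± 0.60 between the RO stages (edgeR adjusted p = 1.93e-05 and 2.70e-04). No fit that left out a library was made without that filter.

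SLC45A2 (chr5:33944616-33984730), a melanosome transporter, was listed at 0 in hiPSCs and at 0.02 to 0.20 FPKM in ROs, from 8 counts in each RO group. P1 iMGCs were at 0.21, 0.38 and 0.02 FPKM and P5 iMGCs at 0.85, 0.23 and 0.73 FPKM. The P1 and P5 libraries overlapped. From 13 counts at P1 to 58 at P5 it was the one gene of the 10 called between the passages when the level filter was left out (log2 change 2.18 ± 0.54, edgeR adjusted p = 6.85e-04, where 2.53% of genes were called higher). Against hiPSCs the P5 level was at least 23-fold higher on the limit of 3 counts.

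The retinoid isomerase RPE65 (chr1:68428822-68449959), which regenerates visual chromophore in the mature RPE, was hardly detected. It was listed at 0 in the 3 hiPSC libraries, at 0.02, 0.03 and 0.08 FPKM at D70 and at 0.12, 0.05 and 0.12 FPKM at D150, from 6 and 12 counts. P1 iMGCs had 1 count and P5 iMGCs 3. All RO libraries lay above all hiPSC libraries, and the RO stages overlapped. D150-ROs were higher than hiPSCs by at least 4.93-fold on the limit of 3 counts, with their 12 counts taken as exact. The fall from D150-ROs to P1 iMGCs was 12.5-fold by counts with a 95% counting interval of 1.84 to 533, and was not a call without the level filter (edgeR adjusted p = 0.0755).

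BEST1 (chr11:61949821-61965515), the chloride channel of the basal RPE membrane, started from 0.28, 0.36 and 0.23 FPKM in hiPSCs. The D70-RO libraries were at 1.42, 1.60 and 1.52 FPKM, and the D150-RO libraries at 3.26, 2.60 and 2.76 FPKM. It was at 0.46, 0.66 and 0.71 FPKM in P1 iMGCs and at 0.93, 0.92 and 0.79 in P5 iMGCs. By FPKM no 2 of the 5 groups overlapped, in the order D150-ROs, D70-ROs, P5 iMGCs, P1 iMGCs and hiPSCs. By expected counts the passages overlapped, at 31.75 to 45.19 in P1 and 41.73 to 56.33 in P5 iMGCs. Their difference was not a call without the level filter (log2 change 0.28 ± 0.23, edgeR adjusted p = 0.43). BEST1 rose by 1.88 ± 0.27 in D70-ROs and by 2.63 ± 0.21 in D150-ROs against hiPSCs (edgeR adjusted p = 7.17e-05 and 1.13e-07). The difference between the RO stages, 0.76 ± 0.19, was under the 2-fold limit (edgeR adjusted p = 0.00598). It fell by 1.34 ± 0.18 from D150-ROs to P1 iMGCs (log2, edgeR adjusted p = 3.86e-06).

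A measured limit stands beside every BEST1 value. Its exons overlap those of FTH1, the ferritin heavy chain, on the opposite strand, and FTH1 was at 1018.68 to 3733 FPKM. The counts of both genes were fractional in all 15 libraries, and their sum was whole within 0.01 in all 15, as when an estimate divides the same reads between both genes. BEST1 counts came to 0.097% of FTH1 counts in hiPSCs, 0.334% in D70-ROs, 0.953% in D150-ROs, 0.148% in P1 iMGCs and 0.108% in P5 iMGCs. The log2 differences of FTH1 were opposite in sign to those of BEST1 for D150-ROs against hiPSCs (−0.67), between the RO stages (−0.74) and for P1 iMGCs against D150-ROs (1.36). They had the same sign for D70-ROs against hiPSCs (0.07), between the passages (0.73 beside 0.28 for BEST1) and for P1 and P5 iMGCs against hiPSCs (0.68 and 1.43 beside 1.29 and 1.56), where the BEST1 values come from the fit without the level filter. How much of the BEST1 level comes from the division was not tested.

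MITF (chr3:69739435-69968337), the regulator of the pigment genes, was lowest in hiPSCs, at 0.27, 0.12 and 0.27 FPKM. The D70-RO libraries were at 0.81, 1.66 and 0.75 FPKM, and the D150-RO libraries at 1.44, 1.66 and 1.44 FPKM. P1 iMGCs were at 4.50, 3.98 and 4.02 FPKM and P5 iMGCs at 4.35, 2.99 and 3.30 FPKM. All iMGC libraries lay above all RO libraries, and all RO libraries above all hiPSC libraries. MITF rose by 2.84 ± 0.28 from hiPSCs to D150-ROs and by a further 2.16 ± 0.14 from D150-ROs to P1 iMGCs (log2, edgeR adjusted p = 1.02e-06 and 4.51e-10). Between the RO stages the difference of 0.25 ± 0.25 did not pass (edgeR adjusted p = 0.38), and P5 iMGCs differed from P1 by −0.42 ± 0.10, under the 2-fold limit (edgeR adjusted p = 0.002).

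MITF has several starts, and an estimate of FPKM sums transcripts of unlike length, so its order by counts and by FPKM need not be the same. P5 replicate 1 had 218 counts at 4.35 FPKM, whereas P1 replicate 3 had 292 counts at 4.02 FPKM, in libraries of nearly equal size. Against hiPSCs MITF was higher by 5.00 ± 0.21 in P1 and by 4.59 ± 0.21 in P5 iMGCs (log2, edgeR adjusted p = 1.06e-09 and 6.17e-10). In the same iMGC libraries, genes with the M-box core in a promoter window were at 0.01 to 0.04 FPKM for DCT, 0 to 0.03 for TYR and 0.10 to 0.30 for TYRP1. For DCT the core is at the downstream start only, and which start was used was not measured. From D150-ROs to P1 iMGCs the mesenchyme markers rose with MITF, with 4 of 4 tested called higher, beside 44.1% of all genes called. PRRX1 was not tested there and was at 0 to 0.03 FPKM in P1 iMGCs. From hiPSCs to D150-ROs, where MITF also rose, COL1A1 and COL1A2 were the 2 tested and were called lower, beside 58.8% of all genes called. The part of mesenchyme markers in the MITF level was not tested.

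The wider machinery of the melanosome was compared through 25 genes of its biogenesis and transport, many of which serve lysosome-related organelles in other cells too. Of 23 tested between D70-ROs and hiPSCs, 5 were higher and 5 lower beside 43.5% of all genes called, and between the RO stages 7 were higher and 4 lower of 23, beside 33.3%. In P1 iMGCs against D150-ROs 8 of 23 were higher and 4 lower beside 44.1%, with a median log2 change of 0.32 beside −0.05 for all genes tested, and between the passages edgeR called 0 of 22 (6 at an unadjusted p under 0.05, and 0 called by DESeq2 or limma). SLC24A5, a cation exchanger of the melanosome, was found in the same libraries in which DCT was high: it had 1.74, 1.19 and 1.52 FPKM at D70 and 1.40, 1.78 and 2.02 FPKM at D150, and was listed at 0 in all 9 other libraries. It was at least 57.7-fold higher in D70-ROs than in hiPSCs and at least 55.4-fold lower in P1 iMGCs than in D150-ROs.

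The remaining melanosome genes went their own ways. MLPH, melanophilin, which tethers melanosomes for transport, was at 3.60, 3.65 and 3.40 FPKM in hiPSCs and at 0 to 0.20 FPKM in ROs. It rose by 8.45 ± 0.16 on the log2 scale to 24.57, 20.93 and 23.15 FPKM in P1 iMGCs (edgeR adjusted p = 1.13e-16). GPR143, a melanosome receptor, had 11.17, 11.55 and 10.90 FPKM in hiPSCs, with 1.49 to 1.85 FPKM at D70 and 0 to 0.77 FPKM at D150, so in hiPSCs PMEL was not alone. RAB38, which carries enzymes to melanosomes, was likewise at 9.81 to 12.45 FPKM in hiPSCs and at 0.18 to 0.45 in D150-ROs. LYST and MYO7A were highest in D150-ROs, at 10.90 to 12.68 and 2.67 to 3.42 FPKM.

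**Figure D3:**
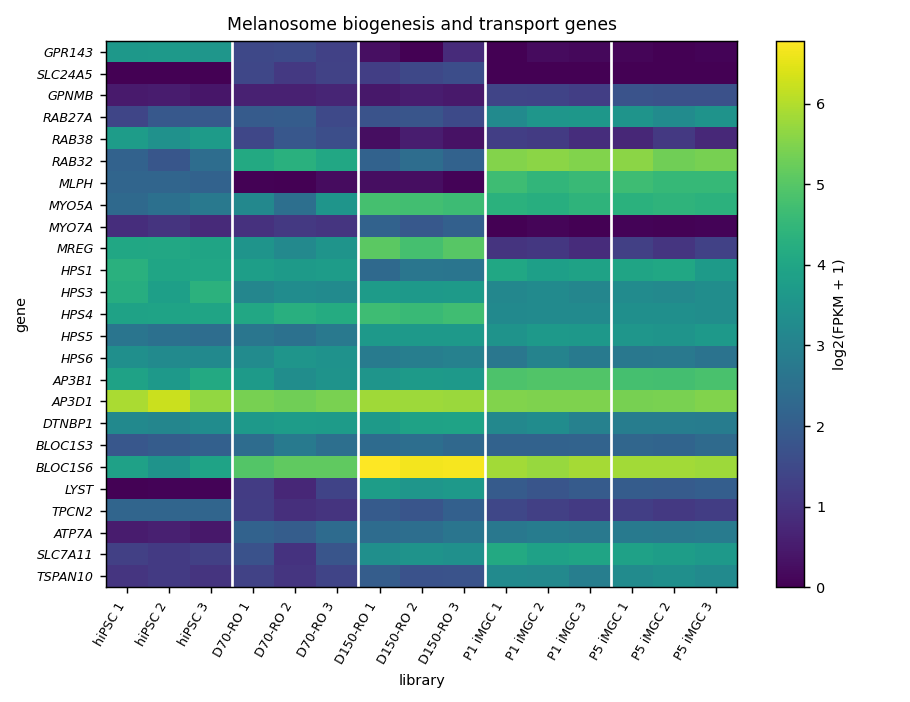
Level of the 25 melanosome biogenesis and transport genes (rows) in the 15 libraries (columns, separated by group), coloured by log2(FPKM + 1). SLC24A5 is above 0 only in the 6 RO libraries, MLPH is brightest in iMGCs, and GPR143 and RAB38 are brightest in hiPSCs.

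Of 9 transcription factors of the RPE, several of which the neural retina makes too, 7 were tested between D70-ROs and hiPSCs, with 5 called higher beside 43.5% of all genes called. In D150-ROs the same test against hiPSCs had 5 higher and 2 lower, TFE3 and TFEB, beside 58.8% of all genes. OTX1 and TFEC did not exceed 0.32 FPKM in ROs. OTX2 was at 419.42 to 467.55 FPKM and CRX at 135.98 to 149.70 FPKM in D150-ROs, and both are also photoreceptor factors. In P1 iMGCs CRX was listed at 0, at least 10098-fold lower than in D150-ROs, OTX2 was at 0.25 to 0.31 FPKM, and PAX6 was at 28.82 to 33.23 FPKM. OTX2 rose from P1 to P5 by 2.92 ± 0.31 (log2, edgeR adjusted p = 4.67e-08) to 1.34, 1.56 and 1.64 FPKM, and LHX2 fell by 1.11 ± 0.17 (edgeR adjusted p = 1.08e-05).

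Of 26 genes of RPE function, 19 were tested in D70-ROs against hiPSCs, with 8 higher and 5 lower beside 43.5% of all genes called. In D150-ROs against hiPSCs 12 were higher and 6 lower of 22, beside 58.8%. Between P1 iMGCs and D150-ROs 19 were tested, with 5 higher and 10 lower beside 44.1%, and a median log2 change of −2.28. The 5 higher were GAS6, ITGAV, ITGB5, PTGDS and RDH5. RGR, RLBP1 and TTR, which handle retinoids or carry thyroid hormone and retinol-binding protein, were at 10.58 to 10.73, 29.64 to 36.91 and 19.13 to 25.89 FPKM in D150-ROs and listed at 0 in P1 iMGCs. RGR and RLBP1 are made by Müller glia as well as by RPE. LRAT, the enzyme that supplies RPE65 with its substrate, was at 5.77 to 7.16 FPKM in hiPSCs and at or under 0.13 FPKM in every other library. CDH3, P-cadherin, had 79.59 to 90.01 FPKM in hiPSCs, 4.09 to 4.13 FPKM at D70 and 0 to 0.05 FPKM in iMGCs. Between the passages, where 2.92% of all genes were called, 2 of 13 rose, ENPP2 by 1.55 ± 0.09 and PTGDS by 1.27 ± 0.13 (log2, edgeR adjusted p = 2.13e-12 and 3.67e-08).

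**Figure D4:**
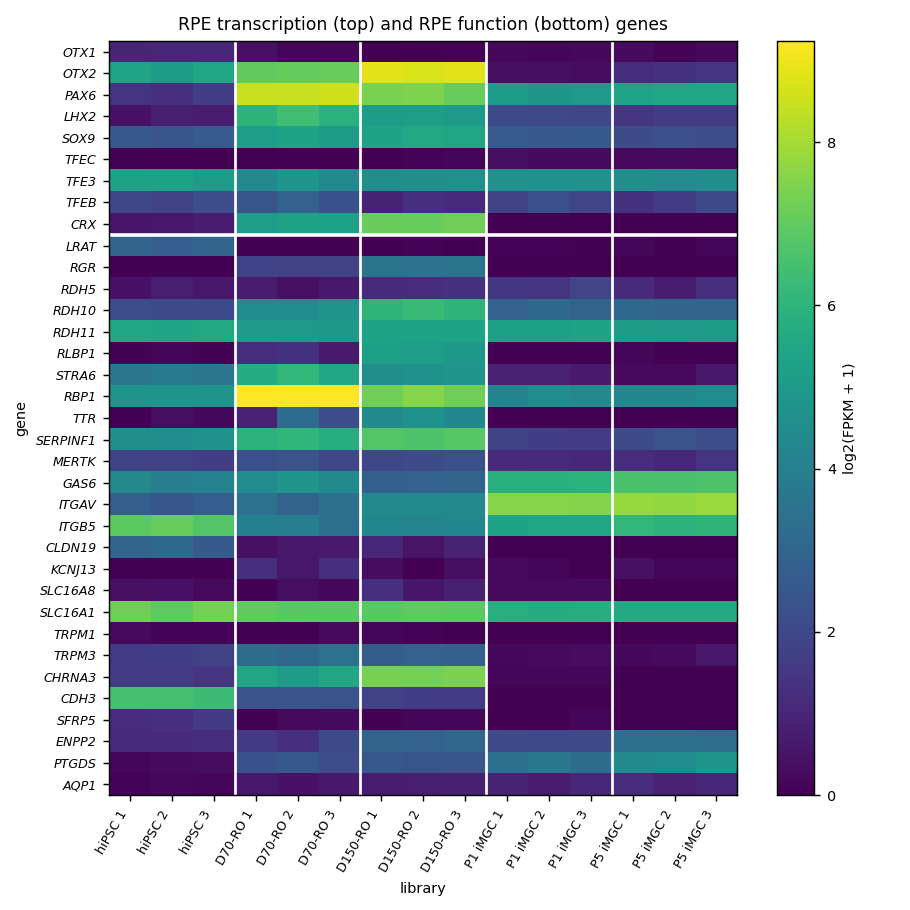
Level of 9 transcription and patterning genes (upper block) and 26 function genes of the RPE (lower block) in the 15 libraries, coloured by log2(FPKM + 1). OTX2, CRX, RGR, RLBP1 and TTR are bright in D150-ROs and dark in both iMGC groups, and LRAT and CDH3 are brightest in hiPSCs.

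Markers of the neural crest lineage, the other source of pigment cells, were compared next. SOX10, which defines the lineage, was at 2.87, 3.19 and 2.44 FPKM in hiPSCs, at 0.02 to 0.20 FPKM in ROs and at 0 to 0.05 FPKM in iMGCs. PAX3 was listed at 0 in D150-ROs and in both iMGC groups. Of the 10 markers, 6 were tested between P1 iMGCs and D150-ROs and all 6 were lower, where 44.1% of all genes were called, and 3 of 6 were higher at D150 than at D70, where 33.3% were. Their summed FPKM was 1.93 to 3.24 in iMGCs and 37.64 to 88.52 in ROs. TFAP2A, at 11.58 to 33.14 FPKM in D150-ROs, is also a factor of amacrine and horizontal cells. In hiPSCs, where PMEL and GPR143 were high, 5 of the 10 markers reached 1 FPKM in all 3 libraries. EDNRB was at 29.85 to 34.49 FPKM there and ERBB3 at 18.72 to 22.87 FPKM. In the same libraries PAX3 was at 0 to 0.11, TFAP2A at 0.08 to 0.28, S100B at 0.54 to 1.06 and MC1R at 0.74 to 1.10 FPKM.

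The ciliary margin, where neural retina meets pigment epithelium, was represented by 4 genes. CPAMD8 was at 71.70, 64.17 and 75.66 FPKM in D70-ROs, the stage at which OCA2 and TYR were highest, and at 5.52, 6.12 and 9.95 FPKM in D150-ROs, 3.55 ± 0.13 lower on the log2 scale (log2 change −3.55, edgeR adjusted p = 1.45e-07). OPTC and SFRP2 were lower in D150-ROs too, so all 3 tested were called, beside 33.3% of all genes. The other gene, MSX1, was not tested and stood at 0.21 to 0.45 FPKM at D70 and 0.47 to 0.73 FPKM at D150. The part of ciliary margin cells in the OCA2 and TYR levels was not tested.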

How the data were processed

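Poly(A) RNA of 15 libraries was sequenced and, per the study's methods and the submitters' processing notes, mapped with HISAT2, assembled with StringTie and quantified with RSEM; versions, genome build and annotation are not given in the sources used here. The deposited values are RSEM expected counts, whose totals differ between libraries and which were rounded here to whole numbers, and FPKM, which the authors scaled by transcript length and mapped fragments. Between 8.21% and 10.1% of expected counts were not whole. A correction across data batches is named in the description of the series, and which deposited values it touched is not given in the sources used here. The hiPSC and RO libraries and the iMGC libraries lie in separate tables of the same genes, and counts were joined by gene identifier and normalized together, so FPKM set across them rest on each table's own scaling. Another table has 12 columns not used here, since its iMGC columns name no passage. Symbols came from a names table (80 of 19684 identifiers had no entry and kept the GENCODE 29 name) and positions from GENCODE 29 (GRCh38).

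Groups were compared 2 at a time in R 4.3.3 with edgeR 4.0.16 (quasi-likelihood, TMM, no covariates), testing genes that reached 1 FPKM in 3 or more of the 6 libraries, with Benjamini-Hochberg adjustment over all genes tested. Bounds and 95% counting intervals use counts summed over a group and scaled by library totals. The intervals (exact binomial, scipy 1.17.1) cover counting error only. The bounds set a count of 0 to 3, take the other count as exact and so leave out its counting error. The 10 genes and all lists were chosen with earlier results of these data known. The rule for naming list genes was at most the 3 with the largest called change and groups that do not overlap in a comparison. Markers used to check labels and neighbours that overlap a gene are named too. Further list genes are named outside that rule, such as TFE3, OTX1, TFEC, PAX3 and MSX1. The 10 genes most like the mean of PMEL, TYR, TYRP1 and DCT were ranked by Pearson correlation over log2(FPKM + 0.1). Alternatives were no filter, DESeq2 1.42.0 and its size factors, upper-quartile scaling, limma 3.58.1 on log2(FPKM + 1) and log2(FPKM + 0.1), 1 fit to all 15 libraries, a replicate block and each library left out. The tests with the level filter were also run on simulated counts, with 200 genes changed 4-fold. There edgeR recovered 99.5% to 100% of these, with 0 to 6 false calls. Fewer genes changed in the simulation than were called in the real comparisons. The fit without the level filter was not simulated, so calls made at few counts are not covered. Figures were drawn with matplotlib 3.10.9.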

Additional observations from a re-analysis of the deposited data

How the results depend on the processing

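Limits of level decide most counts. Without the level filter the number of the 10 genes called went from 2 to 6 for D70-ROs against hiPSCs, from 4 to 7 for D150-ROs against hiPSCs, from 1 to 3 between the RO stages, from 0 to 1 between the passages, and from 2 to 8 and from 2 to 7 for P1 and P5 iMGCs against hiPSCs, because more genes were tested. By adjusted p alone, with no 2-fold limit, 3 genes were called between the RO stages and 1 between the passages. With limma on log2(FPKM + 1), 1 was called in D70-ROs against hiPSCs, since BEST1 changed by 0.96. Of the single-gene values of genes that passed the level filter, 277 kept direction and call and 3 kept direction only, the BEST1 value and PMEL in P1 iMGCs against D150-ROs, at −0.87 with limma on log2(FPKM + 1) and from −1.89 to −0.85 with a library left out. No direction turned among them. A further 47 values exist only without the filter, and 23 of these were calls. On log2(FPKM + 0.1) the median of all genes from D150-ROs to P1 iMGCs lay at −0.67, against −0.05 by counts. With the replicate block 4 genes were called for P1 iMGCs against D150-ROs, as without it, and it changed no call of the 10 genes. Deviations of equally numbered libraries correlated between −0.059 and 0.347. Of the 6 libraries of a comparison, 5 were closest to their own number for P5 against P1 iMGCs, and 2 to 4 in the others. These values do not settle whether the numbers pair the libraries. Genes with under about 10 counts in a group carry counting error that no alternative removes.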

Other observations

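The genes whose pattern over the 15 libraries was most like the mean of PMEL, TYR, TYRP1 and DCT, among 13911 genes compared, were GRB10, DLL3, SLC18A2, CERK, NTSR1, PKDCC, H2AC25, TUBB3, KCNJ4 and FUNDC2, with Pearson r on log2(FPKM + 0.1) from 0.987 to 0.993. The 15 points fall into 5 groups, so this likeness is between group levels. It is also likeness to a mean of unlike patterns and not to each gene. By mean FPKM, PMEL was highest in hiPSCs (127.3) and TYRP1 in P1 iMGCs (0.21), while TYR (0.32) and DCT (15.26) were highest in D70-ROs. All 10 genes ranked here were highest in D70-ROs, where the mean FPKM of TUBB3, a neuronal tubulin, was 557.9 beside 150.8 in hiPSCs and 134.5 in D150-ROs. DLL3, a Notch ligand of retinal progenitors, had a mean of 21.0 FPKM in D70-ROs, 2.59 in D150-ROs and 0.333 in P1 iMGCs. None of the 10 is on the melanosome or RPE lists.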
